A study of Mus musculus with 8 samples.

Results

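The 10 genes described here are used in the mouse brain as markers of the thalamus: Shox2, Tcf7l2, Slc17a6, Prkcd, Rora, Synpo2, Tnnt1, Ramp3, Plekhg1 and Ntng1. They were matched by symbol, and all 10 were found among the 28732 genes of the count table. The set was chosen by the raw counts of Shox2, which differ between the knockout and control libraries described here, in order to see whether other thalamic genes moved with it. The knockout-against-control values of the members are therefore a description and carry no test. RNA was sequenced from mouse tissue labelled as cerebral cortex at postnatal day 90, which the series text gives as 12 to 14 weeks of age. The 4 knockout libraries came from Cdh5-CreER::Tak1fl/fl mice, called Tak1 cKO, in which a tamoxifen-inducible recombinase under the promoter of the endothelial cadherin gene Cdh5 can delete the floxed alleles of the kinase TAK1 in vessel-lining cells. The 4 control libraries came from Tak1fl/fl mice with no recombinase, and both groups carried the floxed alleles and received tamoxifen. Neither group is a mutant of any of the 10 genes.

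The thalamus relays sensory and motor signals to the cortex, and its relay neurons use glutamate and send their axons to the cortex while their cell bodies stay outside it. RNA of cortex therefore holds little from relay neurons unless neighbouring tissue is included. Shox2 and Tcf7l2 encode transcription factors that in mice act in the differentiation or upkeep of thalamic neurons, and Slc17a6 encodes VGLUT2, the vesicular glutamate transporter these neurons use. Several of the other markers are not confined to the thalamus. Rora is also expressed by layer IV cortical neurons, and Tcf7l2 also by the oligodendrocyte lineage.

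The libraries held between 13483354 and 17728963 counts. Levels are given as CPM, the counts of a gene scaled to library size. Map3k7, which encodes TAK1, had 35.3 to 42.6 CPM in Tak1 cKO libraries and 36.2 to 42.7 CPM in controls. edgeR's quasi-likelihood test gave it an adjusted p of 0.843 (log2 fold change -0.04, SE 0.11), and since other cell types also express it, this level does not check the deletion. Of 15564 genes that passed the filter on low counts, the same test called 535 higher (3.44%) and 466 lower (2.99%) in Tak1 cKO at an adjusted p of 0.05, together 6.43%. These counts depend on single libraries: without control 2 they were 93 and 35, without Tak1 cKO 5 109 and 46, and without Tak1 cKO 4 1012 and 1043. Libraries are named by the numbers in the deposited table, 2 to 5 for Tak1 cKO and 1 to 4 for controls. The labels give no pairing by these numbers. Nothing in the labels ties a library to its own mouse, and errors and p-values therefore cover the spread between libraries, which may be technical.

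Sequences around the start sites of 3 members are shown because the results turn on them: Shox2 had the largest difference, Rora was higher in every Tak1 cKO library, and Tcf7l2, a main regulator of thalamic identity, overlapped between the groups. Each runs 5′ to 3′ on the gene's strand, from 250 bases before the start to 50 after it, and comes from RefSeq on GRCm38.p6. Capitals mark matches to 3 short motifs, searched on both strands: the homeodomain core TAATTA, the TCF/LEF core CTTTGA and the ROR half-site AGGTCA.
Shox2, chr3:66981722-66982021, minus strand: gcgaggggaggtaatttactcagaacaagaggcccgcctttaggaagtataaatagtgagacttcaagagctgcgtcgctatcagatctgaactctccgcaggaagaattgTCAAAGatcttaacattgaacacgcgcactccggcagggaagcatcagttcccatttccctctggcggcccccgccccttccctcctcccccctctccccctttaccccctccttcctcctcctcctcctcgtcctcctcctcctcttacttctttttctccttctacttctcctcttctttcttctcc
Rora, chr9:68653536-68653835, plus strand: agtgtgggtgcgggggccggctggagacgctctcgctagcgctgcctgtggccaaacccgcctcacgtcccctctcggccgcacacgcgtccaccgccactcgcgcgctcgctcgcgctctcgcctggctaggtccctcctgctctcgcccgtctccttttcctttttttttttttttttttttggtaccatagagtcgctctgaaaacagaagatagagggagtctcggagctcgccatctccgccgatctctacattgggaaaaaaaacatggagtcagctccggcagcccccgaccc
Tcf7l2, chr19:55741560-55741859, plus strand: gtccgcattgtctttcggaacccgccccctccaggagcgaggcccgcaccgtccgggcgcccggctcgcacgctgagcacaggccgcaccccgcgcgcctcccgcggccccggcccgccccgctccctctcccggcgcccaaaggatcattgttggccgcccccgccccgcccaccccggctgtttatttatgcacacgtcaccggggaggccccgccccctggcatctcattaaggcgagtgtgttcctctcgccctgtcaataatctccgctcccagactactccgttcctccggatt

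The Shox2 window held 1 match, to the TCF/LEF core read from the opposite strand, and the other windows shown held none. All 10 members had a window in the table, 13 windows in all. The TCF/LEF core was present in 2 of the 13 windows, those of Shox2 and Prkcd, against 16% of all 32851 windows of the same length. The homeodomain core was present in 2 of the 13 windows, those of Slc17a6 and Synpo2, against 5.29% of all windows. The ROR half-site was in none of the members' windows, against 16.3% of all windows. The windows differed in composition: 53.3% G and C with 11 CpG in Shox2, 60.3% with 28 CpG in Rora and 70.0% with 34 CpG in Tcf7l2, beside medians of 52.7% and 7 over all windows. No motif was shared by more than 2 members.

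Shox2 (ENSMUSG00000027833, chromosome 3, 66971727 to 66981771, GRCm38, minus strand) was detected in every Tak1 cKO library and was at or near 0 in controls. It had 24, 44, 55 and 16 counts in Tak1 cKO libraries 2, 3, 4 and 5, against 0, 1, 4 and 0 counts in controls 1, 2, 3 and 4. Scaled to depth these were 1.40, 3.34, 3.22 and 1.09 CPM in Tak1 cKO, against 0, 0.0628, 0.219 and 0 CPM in controls, where a count of 0 allows up to 0.216 CPM in control 1 and 0.202 CPM in control 4 (3 counts). The groups did not overlap, and Tak1 cKO 3 and 4 stood at more than double the level of Tak1 cKO 2 and 5. The mean was 2.26 ± 1.18 CPM in Tak1 cKO and 0.0704 ± 0.103 CPM in controls (SD, n = 4 each), and the fitted log2 fold change was 4.71 ± 0.70 (SE). In bulk RNA, more cells of a type and more RNA per cell cannot be told apart.

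The Shox2 fold rests on 5 control reads in all. Summed over libraries, Shox2 had 139 counts in Tak1 cKO and 5 in controls, which is 2.24 CPM (exact 95% Poisson interval 1.88 to 2.64) and 0.0794 CPM (0.0258 to 0.185), counting error only. Without control 3, which held 4 of the 5 reads, the fitted log2 fold change was 6.21. The authors' deposited table gave 4.86 with a standard error of 0.812. Of the 15564 genes tested 5, Shox2 included, had a log2 fold change as high as that of Shox2. Since this contrast chose Shox2, nothing is read from its rank. Shox2 passed the filter on low counts through its Tak1 cKO libraries alone.

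The other 2 transcription factors among the members differed less between the groups than Shox2. Tcf7l2 (chromosome 19, 55741820 to 55933654), an HMG-box factor of Wnt signalling, was at 29.0, 33.0, 35.8 and 27.4 CPM in Tak1 cKO libraries 2 to 5, against 38.8, 31.7, 33.4 and 28.3 CPM in controls 1 to 4. Its groups overlapped, its lowest library was Tak1 cKO 5, and its log2 fold change was -0.08 ± 0.13 (SE). Rora (chromosome 9, 68653786 to 69388246), an orphan nuclear receptor, was at 183, 194, 151 and 177 CPM in Tak1 cKO libraries 2 to 5, against 130, 110, 142 and 130 CPM in controls 1 to 4. Every Tak1 cKO library lay above every control, with a log2 fold change of 0.46 ± 0.11 (SE), a ratio of the means of 1.37. The order within the knockouts differed from that of Shox2, since Tak1 cKO 4, high in Shox2, was the lowest of the 4 in Rora.

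**Figure D1:**
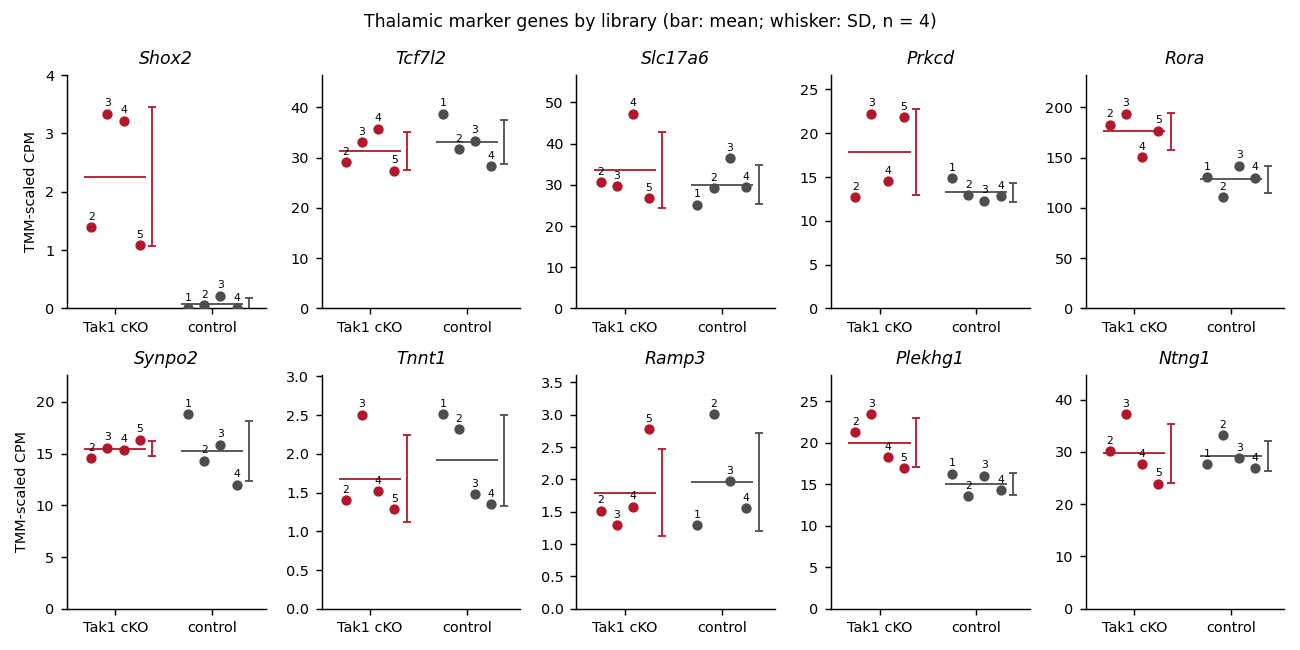
CPM of the 10 members in each library (points, with the library number; red, Tak1 cKO; grey, control), each panel with its own scale from 0; lines are means and whiskers SD (n = 4). In Shox2, Rora and Plekhg1 every Tak1 cKO point lies above every control point, and in the other 7 panels the groups overlap.

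Among genes of the relay synapse and axon, group differences were small. Slc17a6 (chromosome 7, 51622006 to 51671119) was at 30.7, 29.6, 47.3 and 26.8 CPM in Tak1 cKO libraries 2 to 5, against 25.2, 29.1, 36.4 and 29.4 CPM in controls 1 to 4. Tak1 cKO 4 stood above all controls and the other 3 lay within the control range. Its log2 fold change was 0.16 ± 0.18 (SE), and -0.04 without Tak1 cKO 4. Ntng1 (chromosome 3, 109780040 to 110144011), which encodes netrin G1, a membrane-anchored adhesion protein of thalamocortical axons, was at 30.1, 37.3, 27.7 and 23.96 CPM in Tak1 cKO, against 27.7, 33.3, 28.8 and 26.9 CPM in controls. Its Tak1 cKO libraries spread beyond the control range on both sides, and the log2 fold change was 0.03 ± 0.14 (SE).

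The kinase and exchange factor genes leaned higher in Tak1 cKO. Prkcd (chromosome 14, 30595354 to 30626210), which encodes protein kinase C delta, was at 12.7, 22.2, 14.5 and 21.9 CPM in Tak1 cKO libraries 2 to 5, against 14.9, 12.9, 12.3 and 12.8 CPM in controls 1 to 4. Tak1 cKO 3 and 5 stood above all controls and Tak1 cKO 2 and 4 within their range, with a log2 fold change of 0.43 ± 0.19 (SE). Plekhg1 (chromosome 10, 3740364 to 3967303), a guanine nucleotide exchange factor gene, was at 21.3, 23.5, 18.3 and 16.9 CPM in Tak1 cKO, against 16.3, 13.6, 16.0 and 14.2 CPM in controls. The groups did not overlap at this scaling, by a margin of less than 1 CPM between Tak1 cKO 5 and control 1, and the log2 fold change was 0.41 ± 0.14 (SE). With CPM by total count, 3 of the 4 Tak1 cKO libraries lay above the controls in Plekhg1.

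The cytoskeletal and receptor genes overlapped between the groups. Synpo2 (chromosome 3, 123076519 to 123236149), an actin-binding protein gene, stood at 14.6 to 16.4 CPM in Tak1 cKO, inside the control range of 12.0 to 18.8 CPM, with a log2 fold change of 0.02 ± 0.15 (SE). Tnnt1 (chromosome 7, 4504570 to 4516382), a slow muscle troponin T gene, had 24, 33, 26 and 19 counts in Tak1 cKO, against 35, 37, 27 and 20 counts in controls. Ramp3 (chromosome 11, 6658521 to 6677475), whose product modifies receptors of the calcitonin family, had 26, 17, 27 and 41 counts in Tak1 cKO, against 18, 48, 36 and 23 counts in controls. Both stood at 1.29 to 3.01 CPM, near the mean of Shox2 in Tak1 cKO, and their log2 fold changes were -0.20 ± 0.32 and -0.13 ± 0.34 (SE). Both varied about 2-fold between libraries of the same group.

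Of the 10 members, 3 had all 4 Tak1 cKO libraries above all 4 controls, where 8.58% of the 15564 genes did, and none had all 4 below, where 7.65% did. Since this contrast chose the members, nothing is read from that count. With raw counts only Shox2 kept this separation. The log2 fold changes of the other 9 members ran from -0.20 to 0.46, 6 above 0 and 3 below, while the middle 50% of all genes tested lay between -0.24 and 0.24. Tak1 cKO 4 had Shox2, Slc17a6, Rora and Plekhg1 above all controls, and Tak1 cKO 3 had Shox2, Prkcd, Rora, Plekhg1 and Ntng1 above them and Ramp3 below. Tak1 cKO 5 had Shox2, Prkcd, Rora and Plekhg1 above all controls, and Tcf7l2, Tnnt1 and Ntng1 below. Tak1 cKO 2 had only Shox2, Rora and Plekhg1 above.

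Ratios within a library do not depend on the scaling. For every 1000 counts of the other 9 members together there were 4.32, 9.31, 10.3 and 3.46 Shox2 counts in Tak1 cKO libraries 2 to 5, against 0, 0.251, 0.759 and 0 in controls 1 to 4. For every 1000 Tcf7l2 counts there were 48.2, 101, 90.02 and 39.6 Shox2 counts in Tak1 cKO, against 0, 1.98, 6.56 and 0 in controls. Shox2 thus stood higher relative to its fellow markers in each Tak1 cKO library. The other 9 members summed to 327 ± 21.5 CPM in Tak1 cKO and 268 ± 17.4 CPM in controls (SD, n = 4 each), and without Rora the remaining 8 summed to 137 to 165 CPM in Tak1 cKO and 127 to 146 CPM in controls, so that the groups overlapped.

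Per kilobase of exon in GENCODE M21 the order of levels in Tak1 cKO was Rora (13.5 ± 1.40 CPM per kb), Slc17a6 (6.22 ± 1.72), Ntng1 (3.61 ± 0.682), Tcf7l2 (3.57 ± 0.432), Prkcd (3.22 ± 0.889), Plekhg1 (2.29 ± 0.339), Ramp3 (1.30 ± 0.487), Synpo2 (1.18 ± 0.0557), Tnnt1 (0.762 ± 0.254) and Shox2 (0.683 ± 0.358; SD, n = 4). Rora and Slc17a6 each lay above the next gene in every Tak1 cKO library, and from Ntng1 down each neighbouring pair in that order overlapped between libraries. In controls Shox2 was at 0.0213 ± 0.0312 CPM per kb, below Tnnt1 at 0.870 ± 0.267, and the order of the others was the same except that Tcf7l2 (3.77 ± 0.496) stood above Ntng1 (3.54 ± 0.347), within their spread.

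A list of 24 other thalamic genes, none of them a member, was measured beside them. Of the 23 that passed the filter on low counts, 1 was lower, 0 were higher and 22 did not pass the adjusted threshold of 0.05 in the edgeR test. Over all genes tested 3.44% were higher and 2.99% lower. The median log2 fold change of the list was -0.01, against -0.00209 over all genes, and at an unadjusted p of 0.05 2 of the 23 were higher and 4 lower, where 13% and 12.8% of all genes were. DESeq2 called 1 higher and 2 lower, where it called 6.21% of all genes higher and 5.51% lower (11.7% in all), and limma voom called 0 and 1.

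The gene that passed was Cacna1g, which encodes a low-voltage-activated T-type calcium channel used in thalamic burst firing. It was at 31.2, 29.0, 41.03 and 37.8 CPM in Tak1 cKO libraries 2 to 5, against 56.7, 46.0, 46.0 and 46.5 CPM in controls 1 to 4, and every Tak1 cKO library lay below every control. It fell by 0.49 on the log2 scale (SE 0.13, adjusted p = 0.0465 in edgeR's quasi-likelihood test). The call ended when any one library other than Tak1 cKO 4 was left out (adjusted p 0.0549 to 0.129). Adarb1, an RNA-editing deaminase gene, was at 181 ± 12.7 CPM in Tak1 cKO and 219 ± 6.54 CPM in controls (SD, n = 4 each) with an edgeR adjusted p of 0.0834.

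**Figure D2:**
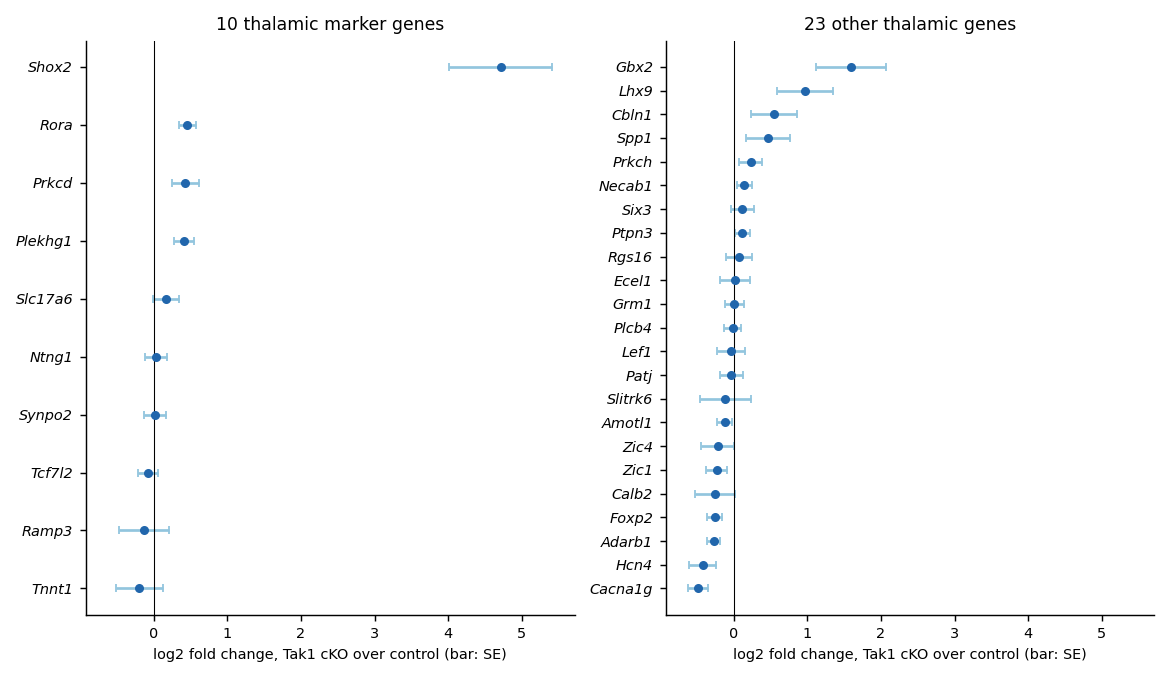
Log2 fold changes of Tak1 cKO over control with their SE for the 10 members (left) and the 23 other thalamic genes tested (right), on one scale. Shox2 stands at 4.71, Gbx2 at 1.59 and Lhx9 at 0.97, and all other genes lie between -0.49 and 0.55.

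The highest log2 fold changes in this list were those of Gbx2 and Lhx9, homeodomain factors of thalamic development in mice, and both had few reads. Gbx2 had 17, 20, 47 and 15 counts in Tak1 cKO libraries 2 to 5, against 8, 11, 3 and 10 counts in controls 1 to 4. All 4 Tak1 cKO libraries stood above the controls, Tak1 cKO 4 highest, and the log2 fold change of 1.59 ± 0.48 (SE) had an adjusted p of 0.0635 in edgeR and 0.0281 in DESeq2. Lhx9 had 26, 44, 69 and 29 counts in Tak1 cKO, against 14, 13, 34 and 27 counts in controls. In CPM 3 of the 4 Tak1 cKO libraries lay above the controls, and the log2 fold change was 0.97 ± 0.37 (SE, edgeR adjusted p = 0.127). In Shox2, Lhx9 and Gbx2 alike, the 2 highest libraries of all 8 were Tak1 cKO 3 and 4. Of the 23 genes tested in this list, 1 (Gbx2) had all 4 Tak1 cKO libraries above all 4 controls, and 3 had all 4 below. Over all genes tested these shares were 8.58% and 7.65%. The 3 were Cacna1g, Adarb1 and Foxp2. Foxp2 was at 46.0 ± 3.54 CPM in Tak1 cKO and 55.0 ± 2.84 CPM in controls (SD, n = 4 each, edgeR adjusted p = 0.132).

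**Figure D3:**
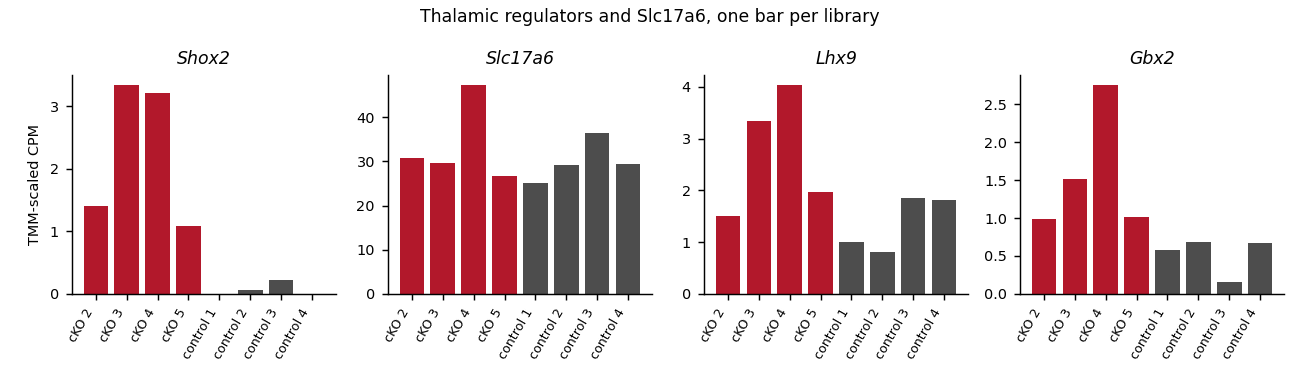
CPM of Shox2, Slc17a6, Lhx9 and Gbx2 in each library (1 bar a library, Tak1 cKO in red, control in grey, axes from 0). Tak1 cKO 4 is the highest library in Slc17a6 (47.3 CPM), Lhx9 and Gbx2, and Tak1 cKO 3 and 4 are the highest in Shox2 (3.34 and 3.22 CPM).

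The 27 relatives and partners of the members did not change as called by the test. They include paralogs (Rorb, Tcf7 and Tcf7l1, Slc17a7 and Slc17a8, Ntng2, Ramp1 and Ramp2), the calcitonin-family receptors that RAMP proteins bind, the netrin G1 ligand gene Lrrc4c and the pacemaker channel gene Hcn2. Of 25 tested, 0 passed in edgeR, and 0 in DESeq2 and limma voom, with 2 higher and 1 lower at an unadjusted p of 0.05 in edgeR and a median log2 fold change of -0.05. Among the smallest p-values were those of the slow muscle troponin I gene Tnni1 (1.57 ± 0.63, log2 fold change and SE), Synpo (-0.26 ± 0.11) and Tnnc1 (-0.47 ± 0.24), with edgeR adjusted p of 0.137 to 0.239. Slc17a7, which encodes the transporter that most cortical glutamate neurons use in place of VGLUT2, was at 363 ± 64.5 CPM in Tak1 cKO and 346 ± 6.95 CPM in controls (SD, n = 4 each).

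Likeness to Shox2 between libraries was measured as the Pearson correlation of log2 CPM over the 8 libraries after each group's mean was removed, as a description. The points share libraries and depth, and in controls Shox2 rests on 0 to 4 reads. The 9 other members had r between -0.15 and 0.70 with a median of 0.24, against a median of 0.02 over the 15563 other genes. Slc17a6 was the most alike of the members (r = 0.70, rank 315), followed by Ntng1 (0.54, rank 1093), Tcf7l2 (0.49, rank 1437), Plekhg1 (0.38), Tnnt1 (0.24), Synpo2 (0.05), Rora (0.03), Prkcd (-0.10) and Ramp3 (-0.15). Single values moved far with another prior count, with the group means kept or with 1 library left out: r ran from 0.470 to 0.923 for Slc17a6, 0.222 to 0.699 for Ntng1, -0.0626 to 0.944 for Tcf7l2, -0.363 to 0.818 for Rora and -0.474 to 0.536 for Prkcd, so the order of the members is not firm. The genes most alike were Xkr6 (0.95), Nhlh2 (0.95), Zfp800 (0.94), Stt3b (0.93) and Hmgcs1 (0.93), none of them on the thalamic list. Within that list Lhx9 had the highest r (0.64, rank 540) and Gbx2 had -0.02.

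**Figure D4:**
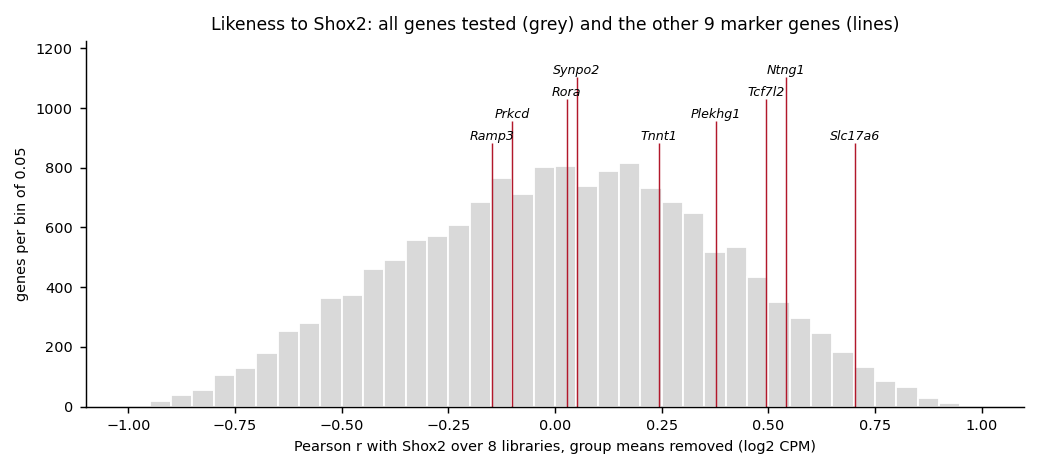
Number of genes (grey bars) by their correlation with Shox2 over 8 libraries with group means removed, in bins of 0.05, with the 9 other members as red lines. The members spread from -0.15 (Ramp3) to 0.70 (Slc17a6), with 7 of 9 above 0, where 8101 of all 15563 genes were.

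A neighbouring gene overlaps Shox2. Rsrc1 (chromosome 3, 66981390 to 67358396, plus strand), a splicing-factor gene, shares 382 bases with the start of Shox2 on the opposite strand, and the whole Shox2 window printed above lies inside Rsrc1. The sources used here give no strand setting for the counting, so reads in the shared bases cannot be told apart. Rsrc1 was at 100, 130, 82.9 and 90.9 CPM in Tak1 cKO libraries 2 to 5, against 218, 170, 137 and 110 CPM in controls 1 to 4. The groups overlapped, and the log2 fold change was -0.65 ± 0.21 (SE, edgeR adjusted p = 0.0833). Over the alternatives its adjusted p ran from 0.0236 to 0.372, and it passed in DESeq2 (0.0236), without control 4 (edgeR, 0.0274) and without Tak1 cKO 3 (edgeR, 0.0442). GENCODE M21 places 13 genes across the other members, and the 8 of these in the table had at most 14 counts in any library.

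Markers of other regions and cell types were measured beside these values. Cortical excitatory neuron genes summed to 1160 to 1208 CPM in Tak1 cKO and 1251 to 1317 CPM in controls, with 1 of 18 lower (Neurod6, -0.68 ± 0.14) and none higher. Striatal genes summed to 2004 to 2498 CPM in Tak1 cKO and 2270 to 3377 CPM in controls, with 2 of 14 lower (Syndig1l and Rxrg) and none higher, so RNA with striatal markers was present in tissue labelled as cortex. Habenula genes summed to 15.9 to 35.6 CPM in Tak1 cKO and 34.6 to 46.1 CPM in controls. Hippocampal genes summed to 289 to 364 CPM in Tak1 cKO and 295 to 406 CPM in controls. Midbrain and hypothalamic genes summed to 11.7 to 15.6 CPM in Tak1 cKO and 7.05 to 11.9 CPM in controls. These sums include genes that did not pass the filter on low counts. Of 3 habenula genes tested Nwd2 was lower (-0.98 ± 0.23), of 7 hippocampal genes 0 passed, with 1 higher and 1 lower at an unadjusted p of 0.05, and of 5 midbrain and hypothalamic genes Ddc, a gene of dopamine synthesis, was higher (1.196 ± 0.29). All calls are at an adjusted p of 0.05 in edgeR, and values are log2 fold changes with SE. Each of these calls ended when certain single libraries were left out: Neurod6 without control 1 or 2 or Tak1 cKO 2 or 5, both striatal genes without any of controls 1 to 3 or Tak1 cKO 2, 3 or 5 (Rxrg also without control 4), Nwd2 without any of controls 1 to 3 or Tak1 cKO 2 or 5, and Ddc without any of controls 1 to 3 or Tak1 cKO 5.

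Choroid plexus genes moved in the same direction as Shox2. Of 13 tested, 7 were higher and none lower in edgeR, among them Clic6 (1.23 ± 0.17), Otx2 (2.26 ± 0.44) and Sostdc1 (1.30 ± 0.27), and the list, none of it at 0 in all libraries, summed to 408 to 574 CPM in Tak1 cKO and 35.8 to 210 CPM in controls. Control 4 was the control with 210 CPM, the others being at 35.8 to 37.5 CPM, and control 4 had 0 Shox2 counts. Most of the sum in Tak1 cKO and in control 4 came from 1 gene, Ttr. Ttr was at 351 to 513 CPM in Tak1 cKO, 174 CPM in control 4 and 5.74 to 9.35 CPM in controls 1 to 3. It did not pass (edgeR adjusted p = 0.183). Oligodendrocyte genes summed to 3479 to 4260 CPM in Tak1 cKO and 2853 to 3417 CPM in controls, with 3 of 9 higher (Mal, Cldn11 and Mobp) and 1 lower. Endothelial genes summed to 183 to 285 CPM in Tak1 cKO and 167 to 208 CPM in controls, with 3 of 8 higher (Adgrl4 and Ly6c1 among them) and Tek lower, and fibroblast genes to 23.9 to 47.0 CPM in Tak1 cKO and 38.1 to 51.4 CPM in controls, with 0 of 8 passing in edgeR and 1 higher and 3 lower at an unadjusted p of 0.05. Counts of higher genes changed when single libraries were left out. For choroid plexus 9 were higher without control 4, 7 without Tak1 cKO 4, 6 without Tak1 cKO 3, 3 without control 1 or 3, 2 without control 2 or Tak1 cKO 2 and 1 without Tak1 cKO 5. For oligodendrocytes 4 were higher without Tak1 cKO 3, 3 without Tak1 cKO 4, 2 without control 1 or 4, 1 without Tak1 cKO 5 and 0 without control 2 or 3 or Tak1 cKO 2. For endothelial genes 1 was higher without control 2 and 2 without any of controls 1, 3 and 4 or Tak1 cKO 2 or 5. The part of these tissues in the Shox2 values was not tested.

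**Figure D5:**
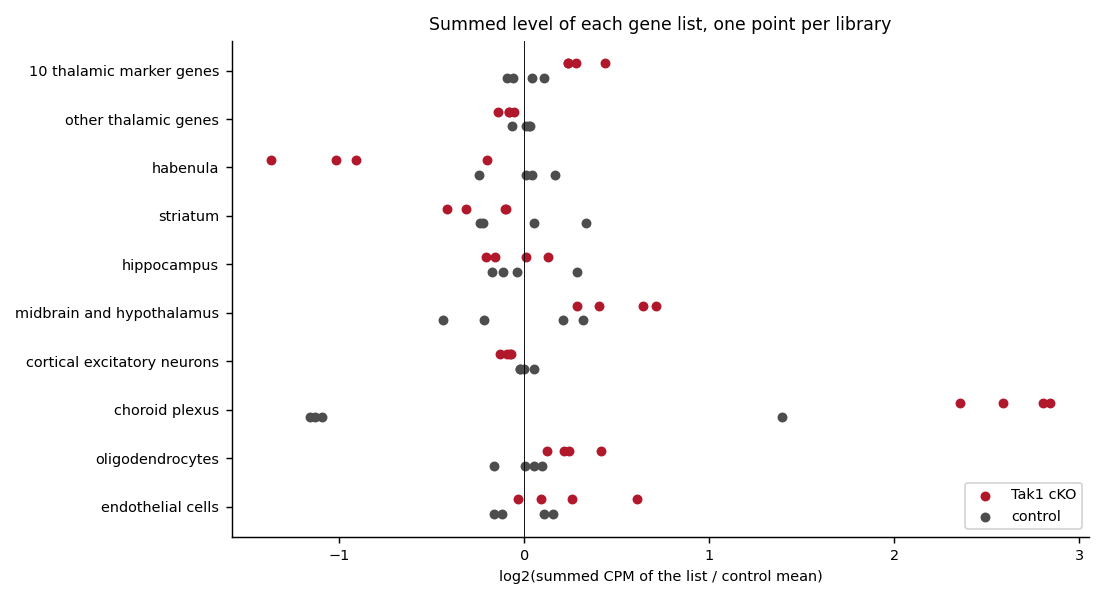
Log2 of the summed CPM of each gene list drawn over its control mean, 1 point a library (Tak1 cKO, red, above control, grey). The relatives and partners and the fibroblast genes are not drawn. Choroid plexus genes spread furthest, with control 4 apart from the other controls. Most of their sum in Tak1 cKO and in control 4 is Ttr. The 10 members, led by Rora, shift by less than 0.5 in every library.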

How the data were processed

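The authors deposited whole-number counts per gene and library, not normalized. The submitters' processing notes name FastQC, HISAT, HISAT2, featureCounts, DESeq2 and the build GRCm38. Versions and the strand setting are not given in the sources used here, and the labels' protocol names a ChIP sequencing library kit. The deposited table also holds the authors' mean signal per gene, log2 fold change, score (Wald statistic) and p-values. Of 29012 lines, 280 repeats of a gene ID were removed.

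Genes were kept with filterByExpr (15564 of 28732), scaled with TMM factors, and compared by the robust quasi-likelihood test of edgeR with no covariate, with Benjamini-Hochberg adjustment at 0.05. The procedure was tested on simulated data. CPM are TMM-scaled. Likeness was taken on log2 CPM (prior count 2). Positions and exon lengths are GENCODE M21, and promoters are RefSeq. Of 162 listed genes, 8 are not analysed here.

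The members and lists were chosen with earlier results of these data known. Genes named outside the members follow a fixed rule (genes of the thalamic and partner lists that passed, and the 4 with the smallest p of each; up to 3 that passed of each other list; Shox2's neighbours; the 5 most like Shox2), and Map3k7, Slc17a7, Foxp2 and those given for their roles were added after their values were seen. Not every gene under the rule is reported here. Alternatives were other scalings, filters and tools, an adjusted p of 0.1, each library left out in turn and a block on column number. Software was Python 3.11.15 with matplotlib 3.10.9, and R 4.3.3 with DESeq2 1.42.0, edgeR 4.0.16 and limma 3.58.1.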

Additional observations from a re-analysis of the deposited data

Results flagged for a closer look

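In 3 of the 76 groups of 4 libraries examined, 1 library stood far from the other 3, where chance gives about 1 in 20 groups. Cacna1g was at 56.7 CPM in control 1, against 46.0 to 46.5 CPM in the other controls, and without control 1 its fall in Tak1 cKO no longer passed (log2 fold change -0.41, edgeR adjusted p = 0.129). Adgrl4, an endothelial adhesion receptor gene, was at 9.71 CPM in control 1, against 13.5 to 14.1 CPM in the other controls. Zfp800, one of the genes most like Shox2 between libraries, was at 40.8 CPM in control 3, against 34.7 to 35.2 CPM in the other controls. No member was among them.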

How the results depend on the processing

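Shox2 kept its direction in all 16 alternative fits, at log2 fold changes of 4.36 to 6.21 when single libraries were left out, the highest without control 3. Genes called numbered 1001, 1566 with no filter on low counts, 1824 in DESeq2, 2183 at an adjusted p of 0.1 and 128 to 2055 without single libraries. Of the other thalamic genes 1 was called, 0 with upper-quartile factors, 2 with no filter, 3 in DESeq2 (Gbx2 higher, Cacna1g and Adarb1 lower), 3 at an adjusted p of 0.1, and 0 to 1 without single libraries. Of the relatives and partners 0 were called, and 0 to 1 without single libraries: Tnni1 higher without control 4 and Calcrl lower without Tak1 cKO 4 (edgeR adjusted p = 0.0499 and 0.0358). Members with all 4 Tak1 cKO libraries above all controls numbered 3, and 1 with raw counts, which are not scaled for depth. The median likeness of the other members ran from 0.0448 to 0.498. Among 57 results on single genes, 562 of 685 alternative values kept direction and side of the threshold or moved by less than the spread. Map3k7 ran from -0.0926 to 0.000133 on the log2 scale and changed sign without Tak1 cKO 2. Other causes were not tested. The column numbers 2 to 4 occur in both groups, and the labels give no pairing by number. The deviations of same-numbered libraries from their group means correlated at 0.0125, -0.211 and 0.223 for 2, 3 and 4. With no known pair to compare, these values cannot decide whether such libraries share a batch. A fit of those 6 libraries with the replicate block called 3 genes and 0 other thalamic genes, and without the block, chosen after seeing the data, 13 and 0. Depth limits Shox2, Gbx2, Lhx9, Tnnt1 and Ramp3, which rest on 0 to 69 counts per library.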

Other observations

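Ttr, which encodes the thyroid hormone carrier transthyretin made by the choroid plexus, was at 496, 351, 418 and 513 CPM in Tak1 cKO libraries 2 to 5, against 9.35, 8.54, 5.74 and 174 CPM in controls 1 to 4, and was chosen after its values were seen. Control 4 stood apart from the other controls, and the edgeR adjusted p was 0.183. Nwd2, a gene of the habenula list, was at 14.1, 12.2, 27.6 and 15.2 CPM in Tak1 cKO libraries 2 to 5, against 29.2, 34.1, 38.6 and 34.3 CPM in controls 1 to 4. The Tak1 cKO library nearest to the controls was number 4, which was among the highest in Shox2. Ddc was at 3.44, 5.16, 2.69 and 6.45 CPM in Tak1 cKO libraries 2 to 5, against 1.65, 1.82, 1.91 and 2.29 CPM in controls 1 to 4. Here Tak1 cKO 4 was the lowest of the 4, so neither gene had the order of libraries seen in Shox2.

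Nhlh2, a basic helix-loop-helix factor gene and the second most like Shox2 between libraries, had 22, 30, 34 and 18 counts in Tak1 cKO libraries 2 to 5, against 16, 22, 30 and 18 counts in controls 1 to 4. Scaled to depth it was at 1.28, 2.28, 1.99 and 1.22 CPM in Tak1 cKO libraries 2 to 5, against 1.15, 1.38, 1.64 and 1.21 CPM in controls 1 to 4, and the groups overlapped. It was named for its likeness to Shox2, so the shared order of libraries is a description.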
